A study of Homo sapiens with 18 samples.

Results

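Receptors for amine, peptide and other small transmitters that couple to G proteins were followed as 50 listed genes, opioid receptors left out, among the 58735 genes of a count table. The rule takes genes by name and not by a measured value, although the list was drawn up with earlier results of these data known. Each of the 50 had a row in the table (GENCODE 29 symbols). The list holds 30 amine receptors (adrenergic, muscarinic, dopamine, serotonin and histamine), 14 peptide receptors, and 6 receptors for adenosine, endocannabinoids or GABA. RNA came from wild-type SH-SY5Y, an established cell line from a human neuroblastoma, a tumour of the sympathetic lineage. In all 6 groups the cells had been made neuron-like by 7 days in 10 µM all-trans retinoic acid. Each group held 3 libraries and was exposed for 15 min: Control to water, Morphine to 193 nM morphine, Metamorphine to 169 nM of the compound of that name, and the TRV130, beta-Endorphin and Naloxone groups to 200 nM of each. TRV130 (oliceridine) is a synthetic mu-opioid agonist, beta-endorphin an opioid peptide of the body, and naloxone an opioid receptor antagonist. The groups model a single tumour line and no tissue. No label says that replicate libraries were grown as independent cultures, so p-values measure the spread between libraries, which may be technical.

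These receptors turn a transmitter outside the cell into a G-protein signal inside it. Receptors that couple to Gs raise cyclic AMP through adenylyl cyclases, those that couple to Gi/o lower it, and those that couple to Gq/11 activate phospholipase C beta and release calcium. Sympathetic neurons carry alpha-2 adrenoceptors and muscarinic receptors as brakes and triggers of transmitter release, and SH-SY5Y cells are widely used to study calcium signals of muscarinic and bradykinin receptors.

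Library totals ran from 21211449 to 33123855 reads, and 46594 genes had at least 1 read. Markers of sympathetic neurons and neuroblastoma were read in every library, in CPM (reads scaled to a library total of 1e6). HAND2, a sympathetic transcription factor, had 456 to 771 CPM, GATA3 105 to 154 CPM and ISL1 237 to 381 CPM. DBH, the enzyme that makes noradrenaline, had 885 to 2222 CPM, and the neuronal genes STMN2 and TUBB3 had 304 to 663 and 482 to 858 CPM. Library names end in 1 of 3 codes, here called A (7 libraries), B (6) and C (5), which are those of Control 1, 2 and 3. The labels do not say what the code stands for. TRV130 had 2 libraries of code A and 1 of code B, and every other group had 1 of each. Control 1 stood apart: the 3647 protein-coding genes with a median of 0 reads over libraries held 20888 reads in it, 3074 in Naloxone 1, 1495 in Naloxone 2 and 276 to 1052 in the other 15 libraries.

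Of the 50 receptor genes, 16 averaged 1 CPM or more, 16 had a mean of 0.1 to 1 CPM, 16 were below 0.1 CPM, and 2, SSTR1 and NPY5R, had no read in any library. A count of 0 limits what this depth could detect and does not show that the gene is silent. Levels were compared between genes as TPM, in which reads are divided by exon length and scaled so that each library sums to 1e6. The 5 highest genes were ADRA2C, CHRM3, ADORA2A, GABBR1 and DRD4, and they held 76.2% of all receptor TPM at the mean over libraries (72.7% to 80.1%). Amine receptors held 67.1% of the receptor TPM and peptide receptors 2.77%. By the main G protein, Gi/o-coupled receptors held 57.5%, Gq/11-coupled receptors 21.7% and Gs-coupled receptors 20.8%. In bulk RNA a lower level in fewer cells and a lower level in every cell cannot be told apart.

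**Figure D1:**
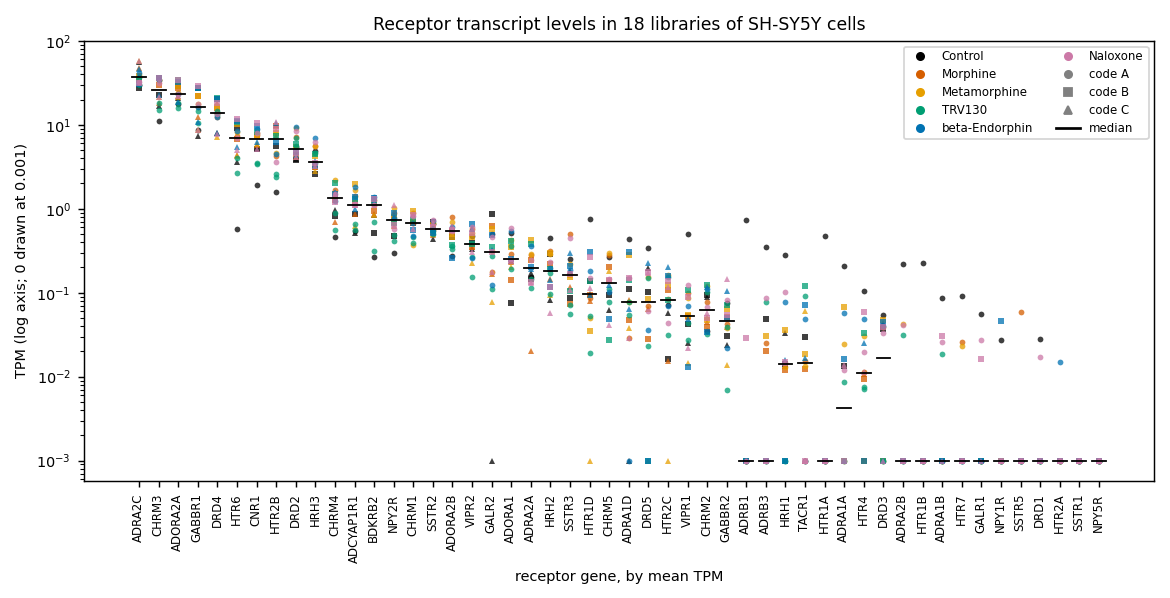
Level of each of the 50 receptor genes in TPM (log axis, 0 drawn at 0.001) in the 18 libraries, ordered by mean, with colour for the treatment group, symbol for the library code and a bar at the median. The means of the 10 leftmost genes run from 39.3 TPM for ADRA2C to 4.16 TPM for HRH3, and the next gene, CHRM4, has a mean of 1.28 TPM, while single libraries overlap (HTR6 at its lowest 0.580 TPM, CHRM4 at its highest 2.23 TPM). Control 1 is the highest library for 14 of the 20 genes with a median under 0.1 CPM.

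Among the 8 adrenoceptors, which bind noradrenaline and adrenaline, 1 was expressed at 1 CPM or more. ADRA2C, the alpha-2C adrenoceptor, a Gi/o-coupled receptor that limits transmitter release (ENSG00000184160, chr4:3766348-3768526 on the plus strand of GRCh38), was the highest receptor gene of all at 39.3 ± 9.90 TPM (SD, n = 18 libraries). Its counts ran from 707 to 1593 reads per library. ADRA2A, the alpha-2A adrenoceptor, came next in the family with 0.390 CPM, 1 to 18 reads per library. The alpha-1 genes ADRA1A, ADRA1B and ADRA1D, the alpha-2B gene ADRA2B and the beta genes ADRB1 and ADRB3 all had means under 0.2 CPM.

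Muscarinic acetylcholine receptors were led by CHRM3, the Gq/11-coupled M3 receptor (chr1:239386565-239915452, plus strand), at 26.4 ± 8.65 TPM. With its long exons it collected more reads than any other receptor gene, 2248 to 5874 per library and a mean of 156 CPM. CHRM4, a Gi/o-coupled receptor, had 1.28 TPM and CHRM1, a Gq/11-coupled receptor, 0.671 TPM. CHRM5 and CHRM2 lay lower still, at 0.138 and 0.0720 TPM. CHRM3 was thus the only muscarinic gene above 2 TPM at the mean.

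Dopamine and serotonin receptors each had a pair of expressed members. DRD4 (chr11:637293-640706, plus strand) had 14.1 ± 4.39 TPM and DRD2 (chr11:113409615-113475691, minus strand) 5.68 ± 1.80 TPM, and both couple to Gi/o. The remaining dopamine receptors, DRD1, DRD3 and DRD5, had 0 to 14 reads in any library. HTR6, a Gs-coupled serotonin receptor (chr1:19665287-19679562, plus strand), had 6.70 ± 3.17 TPM, and HTR2B, which couples to Gq/11 (chr2:231108230-231125118, minus strand), had 6.47 ± 2.97 TPM. The other 7 serotonin receptors (HTR1A, HTR1B, HTR1D, HTR2A, HTR2C, HTR4 and HTR7) had means under 0.3 CPM. HRH3, the Gi/o-coupled histamine receptor that restrains transmitter release (chr20:62214970-62220267, minus strand), had 4.16 ± 1.26 TPM, against 0.194 TPM for HRH2 and 0.0355 TPM for HRH1.

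Adenosine, cannabinoid and GABA-B receptors gave 3 more genes above 1 CPM. ADORA2A, a Gs-coupled adenosine receptor (chr22:24417879-24442360, plus strand), had 24.2 ± 5.53 TPM, while ADORA2B and ADORA1 had 0.506 and 0.310 TPM. CNR1, the Gi/o-coupled cannabinoid CB1 receptor (chr6:88139864-88166359, minus strand), had 6.57 ± 2.27 TPM. GABBR1 (chr6:29555629-29633976, minus strand), the subunit of the GABA-B receptor that binds GABA, had 16.9 ± 7.41 TPM. GABBR2, the partner subunit that couples to the G protein and with which GABBR1 is known to pair, had 0.0533 TPM and 1 to 14 reads per library. GABBR1 reads numbered 684 to 2982 per library.

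Peptide receptors were low throughout. ADCYAP1R1, the Gs-coupled receptor for PACAP, led them with 1.10 ± 0.446 TPM, followed by BDKRB2, the Gq/11-coupled bradykinin B2 receptor, with 0.975 ± 0.343 TPM. NPY2R, the Y2 receptor for neuropeptide Y, had 0.710 TPM, SSTR2, a somatostatin receptor, 0.592 TPM, and VIPR2, a receptor for VIP and PACAP, 0.409 TPM. These 5 reached 1 CPM at the mean. The remaining 9 (SSTR1, SSTR3, SSTR5, NPY1R, NPY5R, GALR1, GALR2, TACR1 and VIPR1) had means under 0.5 CPM.

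In the order of mean TPM, neighbouring genes mostly did not separate. Among the 18 highest genes, HRH3 and CHRM4 were the only neighbours whose ranges over libraries did not meet (2.58 to 6.90 against 0.457 to 2.23 TPM). ADRA2C exceeded CHRM3 in 15 of 18 libraries and CHRM3 exceeded ADORA2A in 12 of 18. ADORA2A exceeded GABBR1, and DRD4 exceeded HTR6, in 18 of 18 libraries. HTR6, CNR1 and HTR2B had nearly equal means, and HTR6 exceeded CNR1 in 7 of 18 libraries. Just above the limit of 1 CPM stood VIPR2 (1.06 CPM) and CHRM1 (1.07 CPM), and just below it CHRM4 (0.929 CPM), whose short exons give it more TPM than 6 of the genes above the limit.

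Some of these levels are uncertain because another annotated gene shares exon bases and the libraries carried no strand. HTR2B shares 559 exon bases with PSMD1 on the opposite strand, a proteasome gene at 73.6 CPM against 6.93 CPM for HTR2B. ADORA2A shares 2380 of its 4193 exon bases with the readthrough gene SPECC1L-ADORA2A on the same strand (89.9 CPM) and 285 with ADORA2A-AS1 on the opposite strand (14.2 CPM). SSTR2 shares 277 exon bases with AC097641.1 (6.28 CPM). VIPR2, at 1.06 CPM, shares 2021 of its 5222 exon bases with LINC00689 on the opposite strand (0.582 CPM). BDKRB2, at 3.19 CPM, shares 479 with AL355102.2 on the same strand (0.641 CPM). GABBR1 shares 722 bases with UBD and OR2I1P, which had 4 and 5 reads in all libraries together. How the counting treated reads in shared bases is not given in the sources used here.

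Sequence before the transcription start was available for 42 of the 50 genes, in 58 windows of 250 bases (RefSeq, GRCh38.p14). ADRA1A, ADRA1D, ADRA2B, ADRB3, DRD2, HTR2B, HRH3 and ADORA2A had no entry. The following 3 windows belong to highly expressed receptors that shifted between library codes as described further on, CHRM3 and GABBR1 down and ADRA2C up in code C relative to code B. Each is cut back to the bases before the first GENCODE 29 exon base, and capitals mark the GC box letters GGGCGG on either strand (CCGCCC on the printed strand) and the cyclic AMP response element letters TGACGTCA, which read the same on both strands.
CHRM3: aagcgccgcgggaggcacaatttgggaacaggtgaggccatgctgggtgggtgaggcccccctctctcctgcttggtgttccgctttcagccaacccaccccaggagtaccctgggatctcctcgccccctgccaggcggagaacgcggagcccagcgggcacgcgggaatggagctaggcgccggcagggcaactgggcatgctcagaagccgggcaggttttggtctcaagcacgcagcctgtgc
GABBR1: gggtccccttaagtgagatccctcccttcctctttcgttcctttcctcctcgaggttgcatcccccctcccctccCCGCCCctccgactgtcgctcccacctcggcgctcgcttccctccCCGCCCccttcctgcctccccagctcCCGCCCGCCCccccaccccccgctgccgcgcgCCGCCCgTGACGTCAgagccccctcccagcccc
ADRA2C: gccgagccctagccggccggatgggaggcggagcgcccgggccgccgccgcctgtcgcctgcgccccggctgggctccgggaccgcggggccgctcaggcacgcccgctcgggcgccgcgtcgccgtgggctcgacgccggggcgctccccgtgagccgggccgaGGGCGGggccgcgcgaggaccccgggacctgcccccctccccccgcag

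The CHRM3 stretch (chr1:239386318-239386564, plus strand) has 247 bases, 66.8% G or C, with 15 CG pairs and neither motif. The GABBR1 stretch (chr6:29628053-29628263, minus strand) has 211 bases, 18 CG pairs, 5 GC box matches, 2 of which overlap, and the TGACGTCA letters once. It starts inside the GABBR1 gene body, upstream of shorter transcripts. The ADRA2C stretch (chr4:3766135-3766347, plus strand) has 213 bases, 85.5% G or C, with 37 CG pairs and 1 GC box match. Over full windows, the GC box letters were in 58.6% of the 58 receptor windows and in 42.6% of 35116 windows of all genes. TGACGTCA was in 1 receptor window (1.72%) and in 1.65% of all windows. The median number of CG pairs was 18 in receptor windows and 11 in all windows. The GC box letters were in 61.1% of the 18 windows of receptors at 1 CPM or more and in 57.5% of the 40 of the others. Among the latter, they were in 42.1% of the 19 windows of receptors under 0.1 CPM. These shares count windows and not genes, so a gene with several windows, such as CNR1 at 1 CPM or more, counts more than once. The GABBR1 and GABBR2 windows, of genes far apart in level, both held the GC box letters.

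Genes that make the ligands and carry the signal were read from lists of pathway genes. Of the peptide ligands, GAL (galanin) had 476 TPM and NPY (neuropeptide Y) 170 TPM, whereas the galanin receptors GALR1 and GALR2 had 0.00551 and 0.329 TPM, and the neuropeptide Y receptors NPY1R and NPY2R had 0.00405 and 0.710 TPM. SST (somatostatin) and TAC1 (the substance P precursor) had no read in any library. Of the enzymes, DBH, which makes noradrenaline, had 923 TPM and DDC 93.4 TPM, and TH, the first enzyme of that route, 0.0609 TPM. Among G protein alpha subunits GNAS, the Gs subunit, was highest at 592 TPM, followed by GNA13, GNAQ and GNA12 at 40.2, 38.1 and 36.0 TPM. ADCY6, at 32.6 TPM, led the adenylyl cyclases, and PLCB3, at 28.98 TPM, the phospholipase C beta genes.

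Control 1 differed from the other 17 libraries in the receptors as well. The 20 receptor genes with a median under 0.1 CPM held 192 reads in Control 1 and 3 to 26 in the others. ADRB1, the beta-1 adrenoceptor, had 36 reads there and at most 1 elsewhere. HTR1A and HTR1B, serotonin receptors, had 15 and 8 reads in Control 1 and none in any other library. VIPR1, a VIP receptor, had 64 reads in Control 1 and 1 to 13 in the others. Over the 34 receptor genes with a mean under 1 CPM, Control 1 was the highest library for 20. It was the lowest library for 6 of the 16 expressed genes: CHRM3, HTR2B, HTR6, NPY2R, BDKRB2 and CNR1. HTR6 had 20 reads in Control 1 (0.785 CPM) and 3.27 to 10.9 CPM in the others.

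Of 5 marker lists of other cell types, 4 were also highest in Control 1. The 6 immune markers summed to 15.2 CPM there and 4.88 to 9.23 CPM in the others. The 6 epithelial markers summed to 13.2 CPM against 2.51 to 5.79 CPM, the 4 endothelial markers to 5.22 CPM against 0.189 to 2.07 CPM, and the 5 glial markers to 9.78 CPM against 5.19 to 8.22 CPM. The 5 mesenchymal markers did not follow, at 98.2 CPM in Control 1 and 90.5 to 188 CPM in the others. The part of these transcripts, or of RNA quality, in the receptor values of Control 1 was not tested. Every comparison with Control contains this library.

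**Figure D2:**
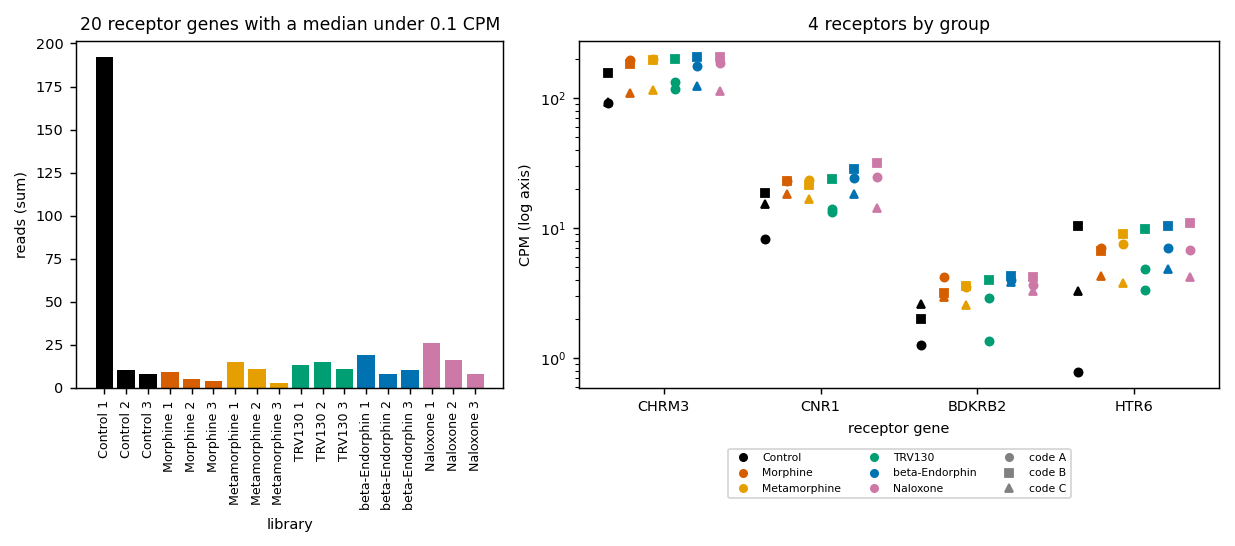
Left, summed reads of the 20 receptor genes with a median under 0.1 CPM in each library, 192 in Control 1 and at most 26 elsewhere. Right, CPM (log axis) of CHRM3, CNR1, BDKRB2 and HTR6 in each library by group, with the symbol for the library code, where Control 1 (black circle) is the lowest point of each gene.

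The design asks whether 15 min with an opioid ligand shifted receptor transcripts. No receptor gene passed in any of the 5 comparisons of a compound with Control (edgeR quasi-likelihood test, Benjamini-Hochberg adjusted p under 0.05 over the 23231 tested genes), and across all genes 0% passed in each. Reads sufficed to test 25 of the 50 receptors. DESeq2 also called 0 receptors in each, with 0 to 2 genes called over the whole table. At an unadjusted p under 0.05, edgeR gave 1 receptor for Morphine, 0 for Metamorphine, 0 for TRV130, 4 for beta-Endorphin and 3 for Naloxone, and 430 to 2198 of all tested genes. The median half-width of the 95% interval over the 25 receptors was 0.88 to 0.89 on the log2 scale, before any adjustment. These fits had no term for the library code, so the intervals include the spread between codes. The code accounted for a median of 43.5% of the variance over all tested genes. With the code as a block, 0 receptors passed as well. Median log2 fold changes of the 25 were -0.11 for Morphine, -0.14 for Metamorphine, 0.04 for TRV130, -0.15 for beta-Endorphin and -0.15 for Naloxone, beside -0.03, -0.04, -0.02, -0.04 and -0.04 for all tested genes.

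BDKRB2, the bradykinin B2 receptor, had the smallest p of the receptors in 3 of these comparisons and was among the lowest 3 in all 5. Its levels were 1.26, 2.00 and 2.61 CPM in the Control libraries, 4.19, 3.19 and 2.95 CPM with morphine, and 3.54, 3.56 and 2.55 CPM with Metamorphine. They were 1.36, 2.90 and 4.01 CPM with TRV130, 3.99, 4.29 and 3.85 CPM with beta-endorphin, and 3.65, 4.22 and 3.27 CPM with naloxone. Control did not overlap the Morphine, beta-Endorphin or Naloxone libraries, and it did overlap those of Metamorphine and TRV130. The log2 fold change was 0.73 ± 0.30 (SE) for Morphine, 0.58 ± 0.31 for Metamorphine, 0.48 ± 0.30 for TRV130, 0.92 ± 0.31 for beta-Endorphin and 0.80 ± 0.30 for Naloxone, with edgeR adjusted p-values of 0.823, 0.595, 1.000, 0.513 and 0.655. These comparisons share the same 3 Control libraries, of which Control 1 was the lowest for this gene. Without Control 1 the values were 0.51, 0.38, 0.27, 0.70 and 0.60 in the same order. Control then holds libraries of codes B and C alone, and these fits have no term for the code. Fold changes without Control 1, here and below, can therefore include differences between codes.

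CNR1, the cannabinoid CB1 receptor, was next. It had 8.32, 18.7 and 15.3 CPM in Control, 23.0, 23.0 and 18.2 CPM with morphine, and 23.5, 21.6 and 16.9 CPM with Metamorphine. With TRV130 it had 13.9, 13.3 and 23.9 CPM, with beta-endorphin 24.3, 28.6 and 18.2 CPM, and with naloxone 24.9, 31.9 and 14.3 CPM. Control overlapped every other group, and its lowest library, Control 1, lay below all the others. The log2 fold changes were 0.52 ± 0.28 (SE) for Morphine, 0.43 ± 0.28 for Metamorphine, 0.27 ± 0.28 for TRV130, 0.62 ± 0.28 for beta-Endorphin and 0.63 ± 0.28 for Naloxone, none of which passed (edgeR adjusted p = 0.823, 0.608, 1.000, 0.513 and 0.655). Without Control 1 they were 0.28, 0.19, 0.02, 0.37 and 0.39 for CNR1. For Naloxone the value was -0.23 without Control 1, Naloxone 1 and Naloxone 2. That fit leaves only Naloxone 3, of code C, against Control libraries of codes B and C.

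Several other receptors ranked by p without passing. CHRM4, the muscarinic M4 receptor, had a log2 fold change of 0.81 ± 0.39 (SE) for Metamorphine, and ADCYAP1R1, the PACAP receptor, 0.68 ± 0.36. CHRM1, the M1 receptor, had -0.81 ± 0.35 for beta-Endorphin, from 1.49, 1.25 and 1.24 CPM in Control to 0.647, 0.849 and 1.01 CPM. HRH2, a Gs-coupled histamine receptor, had -1.54 ± 0.68 for Naloxone, and its Control libraries (0.207 to 1.73 CPM, the highest being Control 1) overlapped the 0.139 to 0.647 CPM of Naloxone. SSTR2 had -0.54 ± 0.31 for Morphine, SSTR3 -1.30 ± 0.75 and VIPR2 -0.71 ± 0.46 for TRV130. Without Control 1 these values were 0.69 for CHRM4, 0.76 for ADCYAP1R1, -0.67 for CHRM1, -0.67 for HRH2, -0.22 for SSTR2, -0.60 for SSTR3 and -0.32 for VIPR2, and none passed (edgeR). For CHRM3, the most read receptor, the 5 fold changes lay between 0.40 and 0.44, with Control at 92.1, 155 and 93.2 CPM and the compound libraries from 109 to 209 CPM. Without Control 1 the CHRM3 values lay between 0.31 and 0.37. In these fits, too, Control had no library of code A.

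**Figure D3:**
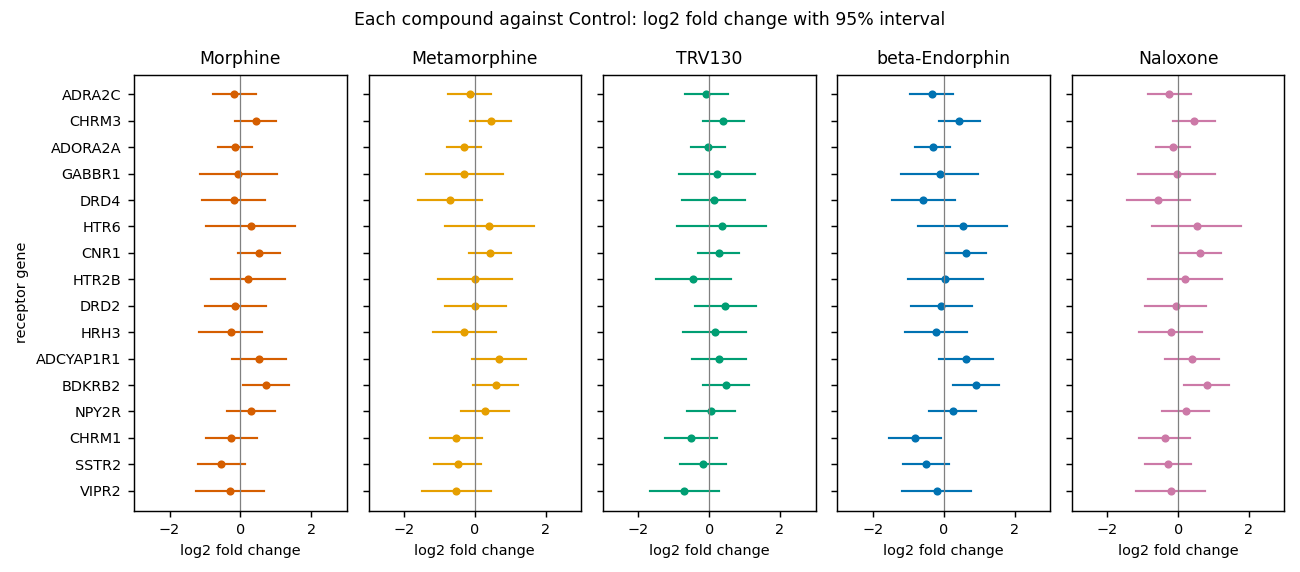
Log2 fold change of each compound against Control (point) with its 95% interval (line) for the 16 receptor genes at 1 CPM or more, from the edgeR fit over 18 libraries. Intervals of BDKRB2 lie above 0 for Morphine, beta-Endorphin and Naloxone before any adjustment, and no receptor passed after adjustment.

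The mean of the 5 compounds against Control, and any difference among the 6 groups, gave the same count. No receptor passed in either (0% of all genes in both, edgeR), with 3 and 0 receptors and 2654 and 565 of all genes at an unadjusted p under 0.05, and DESeq2 called 0 receptors and 12 and 9 genes. BDKRB2 had a log2 fold change of 0.70 ± 0.25 (SE), HRH2 of -1.13 ± 0.48 and CNR1 of 0.49 ± 0.22 in the mean over compounds, each with an edgeR adjusted p of 0.434. Without Control 1 these were 0.49, -0.28 and 0.25. When genes with few reads were kept in the test, 10 receptors passed as lower with the compounds (ADRA1A, ADRA2B, ADRB1, ADRB3, GALR1, HRH1, HTR1A, HTR1B, HTR1D and VIPR1), among 3270 genes. Those 10 genes held 251 reads in Control 1 and 1 to 38 in any other library, and 0 receptors passed once Control 1 was left out.

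Libraries were also set against the Control library of their own code. CHRM3 was higher with a compound than in that Control in 15 of 15 libraries, by a median log2 difference of 0.72 in code A, 0.28 in code B and 0.23 in code C. BDKRB2, CHRM4 and CNR1 were higher in 14 of 15 libraries. ADORA2A, CHRM1 and DRD4 were higher in 1 of 15. These are the receptors with the highest and lowest counts among the 25 tested, and the share of all genes with such counts was not computed. Each code has 1 Control library, so every set of differences within a code shares it, and the counts carry no test. A count of 15 means only that the Control library was the lowest of each code.

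Compounds were compared with Morphine, at doses that differ (193 nM for morphine, 169 nM for Metamorphine and 200 nM for the other compounds). In none of the 4 comparisons did a receptor pass, and 0% of all genes passed in each. At an unadjusted p under 0.05 edgeR gave 0 of the 25 tested receptors in each. Few of the 23231 tested genes were under that limit: 75, 275, 78 and 81 for Metamorphine, TRV130, beta-Endorphin and Naloxone. DESeq2 called 0 receptors in each as well. Against Morphine, the smallest p for Metamorphine was that of DRD4, with a log2 fold change of -0.51 (95% interval -1.41 to 0.38). The Morphine library of code C had 13.49 CPM of DRD4, against 4.714 to 5.431 CPM in the other libraries of that code. In code A DRD4 had 9.53 CPM with Metamorphine and 8.76 CPM with morphine, and in code B 10.6 and 11.6 CPM. For TRV130 it was SSTR3 at -1.26 (-2.83 to 0.31), for beta-Endorphin CHRM5 at -1.32 (-2.93 to 0.29), and for Naloxone CHRM5 at -0.99 (-2.56 to 0.57). Each of these 4 intervals includes 0 and reaches past -1 on the log2 scale, so the data do not show that the compounds acted alike. TRV130 had DRD2 0.59 higher than Morphine (-0.27 to 1.45), and TRV130 is the group with 2 libraries of code A, where DRD2 is high. In code A DRD2 had 14.47 and 17.27 CPM with TRV130 and 14.037 CPM with morphine. In code B it had 11.16 CPM with TRV130 and 8.91 CPM with morphine, and TRV130 had no library of code C. The part of the code in this DRD2 difference was not tested.

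Pathway genes from these lists did not pass against Control either. Of the tested genes, 12 were G protein alpha subunits, 6 adenylyl cyclases, 4 phospholipase C beta genes, 7 receptor kinases and arrestins, 5 peptide ligands and 6 enzymes of transmitter synthesis, and 0 of them passed with edgeR for any compound. Positive fold changes were found for 10748 to 10964 of the 23231 tested genes, in 5 comparisons that share the same Control libraries. All 6 adenylyl cyclases had positive fold changes for each compound. Their medians were 0.33, 0.33, 0.23, 0.35 and 0.37 for Morphine, Metamorphine, TRV130, beta-Endorphin and Naloxone. Their summed level was lowest in Control 1, at 195 CPM against 212 to 502 CPM in the others. Without Control 1 their fold changes remained positive for each compound, from 0.03 (ADCY5 with TRV130) to 0.60 (ADCY1 with beta-Endorphin).

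Receptor levels differed between library codes, in fits that kept the treatment group in the model. Between codes B and A, 9 of the 25 tested receptors passed, 4 higher and 5 lower in B, while 26.9% of all genes passed, 11.5% higher and 15.5% lower. Between codes C and A, 8 passed, 2 higher and 6 lower in C, against 33.2% of all genes, 16.1% higher and 17.1% lower. Between codes C and B, 9 passed, 1 higher and 8 lower in C, against 54.8% of all genes, 26.9% higher and 27.8% lower. The share of receptors was thus above the whole-table share for B against A, near it for C against A and below it for C against B, and the list itself carries no test. In C against A, 5 tested receptors had positive and 20 negative fold changes, with a median of -0.52 beside -0.02 for all tested genes. Reads in all 50 receptors summed to 275 to 330 CPM in code C, 451 to 524 CPM in code B and 317 to 448 CPM in code A. The mitochondrial share of reads also moved with the code, at 4.66% to 9.47% in C, 8.02% to 15.7% in B and 6.15% to 17.7% in A, and its part in these differences was not tested.

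DRD2, the dopamine D2 receptor, followed the code most closely. It ran from 14.037 to 17.4 CPM in code A (median 16.3) and from 8.91 to 11.2 CPM in code B (median 9.12), and it was 7.17, 8.30, 8.30, 8.23 and 7.41 CPM in code C. The ranges of A, B and C did not meet. The log2 fold change was -0.85 ± 0.09 (SE) for B against A (edgeR adjusted p = 8.5e-05) and -0.99 ± 0.10 for C against A (edgeR adjusted p = 3.2e-05). The code accounted for 94.0% of the variance of its log2 level over libraries, against a median of 38.5% for the 25 tested receptors and 43.5% for all tested genes. HRH3, the histamine H3 receptor, moved the same way, from 6.03 to 8.95 CPM in code A to 3.92 to 5.56 CPM in code B and 3.98, 4.11, 3.35, 4.46 and 3.72 CPM in code C. Its log2 fold changes were -0.84 ± 0.13 and -0.94 ± 0.14 (edgeR adjusted p = 8.5e-04 and 4.1e-04).

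HTR2B, the serotonin 2B receptor, went the other way. It had 2.43 to 4.82 CPM in code A (median 3.99), 6.52 to 10.9 CPM in code B (median 7.76) and 10.0, 8.26, 8.39, 10.9 and 10.6 CPM in code C. Code A did not overlap B or C, and B and C overlapped. The log2 fold change was 0.97 ± 0.15 (SE) for B against A and 1.29 ± 0.16 for C against A (edgeR adjusted p = 7.15e-04 and 1.3e-04). PSMD1, which overlaps it on the opposite strand, differed by -0.13 and 0.14 in the same comparisons.

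GABBR1 was highest in code B and lowest in code C. It ran from 49.99 to 78.1 CPM in A (median 65.8) and from 83.1 to 131 CPM in B (median 109), and was 28.4, 52.5, 32.4, 41.6 and 31.6 CPM in C. Code B met neither other code, while the Morphine library of code C reached into the range of A. The log2 fold change was -1.41 ± 0.17 (SE) for C against B, 0.63 ± 0.15 for B against A and -0.78 ± 0.17 for C against A (edgeR adjusted p = 1.6e-05, 0.0084 and 0.0031). Its partner GABBR2, at 1 to 14 reads, was not tested.

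ADRA2C, the alpha-2C adrenoceptor whose upstream sequence is printed above, was highest in code C. It had 34.6 to 48.1 CPM in A (median 39.6), 31.6 to 37.4 CPM in B (median 33.8) and 55.4, 50.8, 56.0, 46.3 and 54.6 CPM in C. Codes B and C did not overlap, and the log2 fold change between them was 0.75 ± 0.10 (SE, edgeR adjusted p = 2.5e-05). CHRM3 moved in the opposite direction, with 155 to 209 CPM in B (median 198) and 93.2, 109, 115, 124 and 113 CPM in C, a log2 fold change of -0.71 ± 0.10 (edgeR adjusted p = 3.4e-05). ADORA2A, the adenosine receptor, also fell from B to C, by 0.53 ± 0.09 on the log2 scale (edgeR adjusted p = 2.2e-04). SPECC1L-ADORA2A, which shares its exons, fell by 0.52 in that comparison.

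The remaining receptors that passed had lower counts or wider spreads. In C against B, HTR6 (-1.17 ± 0.31, SE), DRD4 (-0.86 ± 0.24), ADCYAP1R1 (-0.70 ± 0.19), CNR1 (-0.49 ± 0.16) and GALR2 (-1.77 ± 0.66) fell, with edgeR adjusted p-values from 0.0048 to 0.032. In B against A, HTR6 rose by 0.81 ± 0.28, and ADORA1 (-1.04 ± 0.34) and SSTR3 (-1.15 ± 0.41) fell. Those 3, together with GABBR1, ADORA2A and ADRA2C, no longer passed for B against A without Control 1, Naloxone 1 and Naloxone 2, when DRD2, HRH3 and HTR2B were the 3 receptors left. Without Control 2, 5 receptors passed. Over all genes, 6256 passed for B against A with every library, 1881 without those 3 libraries and 3325 without Control 2. In C against A, HRH2 (-1.54 ± 0.39) and ADCYAP1R1 (-0.67 ± 0.19) fell.

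**Figure D4:**
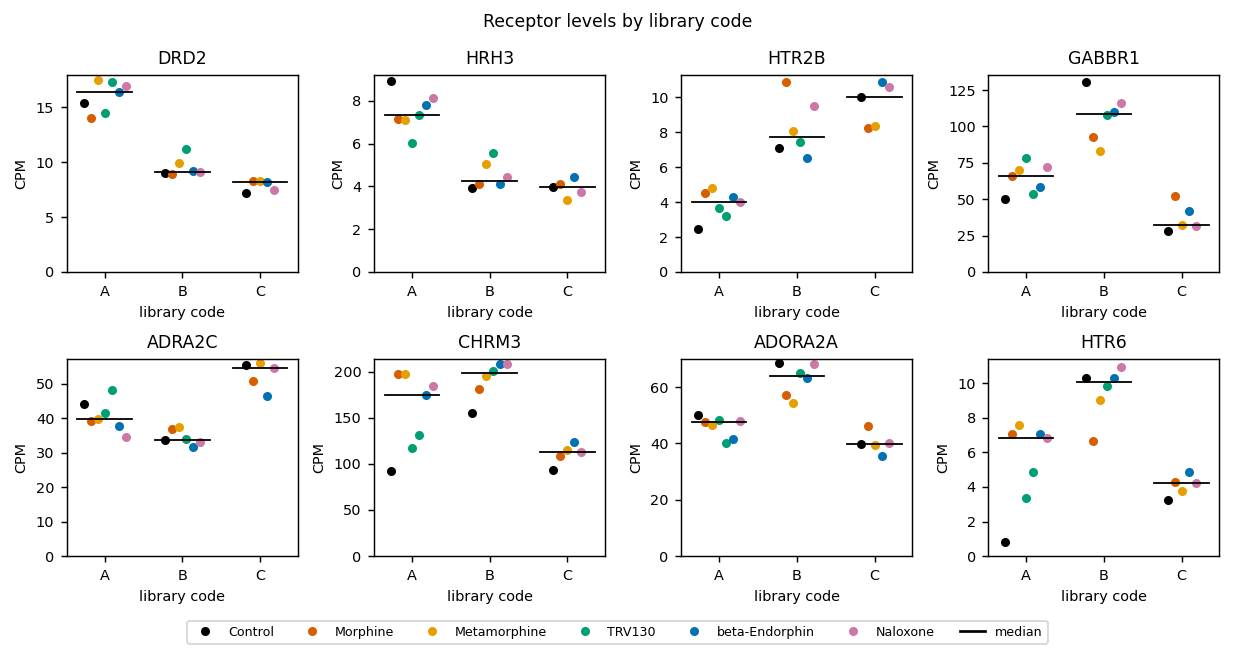
CPM of 8 receptor genes in the 18 libraries by library code (A 7, B 6, C 5 libraries), coloured by treatment group, with a bar at the median. DRD2 and HRH3 are highest in code A, HTR2B lowest in A, GABBR1, ADORA2A and HTR6 highest in B, and ADRA2C highest in C.

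Genes downstream of the receptors differed between codes too. All 6 tested adenylyl cyclases fell from code B to code C, from ADCY1 at -0.91 ± 0.20 (SE) and ADCY6 at -0.84 ± 0.12 to ADCY5 at -0.29 ± 0.12. Of the 12 G protein alpha subunits, 10 had positive and 2 negative fold changes in that comparison, and 6 passed as higher and 1 as lower. GNAI1 rose by 0.61 and GNAS by 0.49, and GNAO1 fell by 0.38. The ligand genes NPY, GAL and VIP rose by 0.66, 0.72 and 1.00, and DBH fell by 0.85 on the log2 scale. The share of all genes that passed in this comparison was 54.8%.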

How the data were processed

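RNA was sequenced as unstranded 150-base paired reads, per the labels' protocols. The deposited table holds raw read counts per Ensembl gene, and the submitters' processing notes name FastQC, HISAT2, featureCounts and DESeq2 with GRCh38 (hg38). The annotation they counted against is not given in the sources used here, nor are versions. All 58735 row IDs exist in GENCODE 29, which gave symbols, positions and exon lengths, and 0 columns were left unused. Samples were grouped by the labelled treatment, and no pair of libraries was identical.

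From the counts, CPM (per library total) and TPM (by summed exon length) were computed. Tests used edgeR 4.0.16 in R 4.3.3: filterByExpr with a minimum count of 10 (23231 genes), TMM scaling, and the robust quasi-likelihood test on all 18 libraries with 1 mean per group, adding the library code for comparisons of codes. Two-sided p-values were adjusted (Benjamini-Hochberg) across the 23231 genes, and a gene passed under 0.05. With the code added, the biological coefficient of variation went from 0.309 to 0.182. The TRV130 codes 10409 and 20409 were read as 0409. The script was tested on simulated data.

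Alternatives were DESeq2 1.42.0, RLE scaling, no low-count filter, each library left out, the compared groups alone, no TRV130, the code alone, other limits for expression, and the replicate number or library code as a block. Named receptors were those at 1 CPM or more, those that passed, or the 3 with the smallest p where none passed. Receptors and lists were chosen with earlier results of these data known. Same-numbered Control and Naloxone libraries deviated together (correlations of 0.25, 0.73 and 0.70). For Morphine, Metamorphine and beta-Endorphin, replicate 1, set against Control 1, had correlations of -0.26, -0.05 and 0.0996. Replicates 2 and 3 of these compounds had 0.39 to 0.67. TRV130 had 0.46 for replicate 1, which shares the code of its Control. Its replicates 2 and 3, which do not share that code, had -0.53 and -0.18. Counts carry no molecular identifiers, and depth (21211449 to 33123855 reads) limits what can be said of receptors under 1 CPM. A marker gene of the neuroblastoma list is not reported here.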

Additional observations from a re-analysis of the deposited data

Results flagged for a closer look

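Within each code, 48 checks asked whether the highest or lowest library of an expressed receptor stood apart from the rest, and chance gives about 1 in 20. DRD4, the dopamine D4 receptor, had 13.49 CPM in the Morphine library of code C, and the other 4 libraries of that code had 4.714 to 5.431 CPM. SSTR2, a somatostatin receptor, had 3.073 CPM in the Control library of code B, and the other 5 libraries of that code had 1.876 to 2.249 CPM.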

How the results depend on the processing

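The count of 0 receptors held in every comparison of compounds under each alternative, except the mean of the 5 compounds against Control. That comparison gave 10 receptors, among 3270 genes, without the low-count filter. When single libraries were left out it gave 0 to 2 receptors (2, HTR1D and VIPR1, among 366 genes, without Control 3). With the replicate number as a replicate block, 0 receptors passed in each comparison, and the same held with the library code as a block; no call changed under either pairing. Receptors that passed for code B against A numbered 9, 3 without Control 1, Naloxone 1 and Naloxone 2, and 5 to 9 with single libraries left out. Over all genes, 6256 passed in the main fit, 1881 without those 3 libraries and 3325 without Control 2. For C against A they numbered 7 to 12 and for C against B 7 to 10 with single libraries left out. CNR1 for Naloxone against Control reversed to -0.23 without Control 1, Naloxone 1 and Naloxone 2, and to -0.053 without them with the code as a block. Both values rest on Naloxone 3 alone, of code C, with Control libraries of codes B and C. The cause of the reversal was not tested. That use of the code as a block was added after seeing the data, as was leaving out Control 1 without the filter. The number of receptors at 1 CPM or more stayed at 16 with each library left out. Receptors with a few reads per library were below what this depth can compare.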
